A study of Rattus norvegicus with 8 samples.

Results

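The interleukin-1 family was followed as 9 genes, chosen by symbol from the 32623 genes counted in every cell of the series. They were the ligand genes Il1a, Il1b, Il1rn, Il18 and Il33 and the receptor genes Il1r1, Il1r2, Il1rap and Il1rl1. All 9 symbols were found, each with 1 gene identifier, among them ENSRNOG00000004575 for Il1a, ENSRNOG00000004649 for Il1b and ENSRNOG00000016456 for Il33. The question was which cells of the rat spinal cord held their RNA, and how the amounts differed with the severity of injury. Cells came from the cord of female Wistar rats aged 8 weeks, collected 7 days after surgery at the level of vertebra T9. A 10 g weight was dropped on the exposed cord from 25 mm in the moderate group, from 50 mm in the severe group and from a lower height in the mild group. The sham group had the vertebral arch removed and no weight drop, so laminectomy was common to all groups. Each group had 2 libraries of the 10x Genomics 3′ kit, in which a unique molecular identifier (UMI) marks each captured RNA molecule. The study describes 8 spinal cords, but the labels do not say that the 2 libraries of a group came from separate animals, so every p-value here measures the spread between these libraries.

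Interleukin-1 alpha (Il1a) and interleukin-1 beta (Il1b) are proinflammatory ligands that bind the receptor Il1r1, which signals together with the accessory chain Il1rap. The receptor antagonist Il1rn occupies Il1r1 without signalling, and Il1r2 is a decoy receptor that takes up ligand without passing on a signal. Interleukin-18 (Il18) is made as a precursor and, like interleukin-1 beta, is cut by caspase-1 in the inflammasome. Interleukin-33 (Il33) is a nuclear protein released from damaged cells, and it signals through Il1rl1, also called ST2, again with Il1rap. In the nervous system, microglia, macrophages and neutrophils are known sources of interleukin-1, and glia are known to hold interleukin-33.

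The proximal promoters of the 4 ligand genes on which the results below turn are shown, because Il1a, Il1b and Il1rn differed with severity and Il33 was found in another set of cells. They are the 150 bases before the annotated start in RefSeq, build GRCr8, written 5′ to 3′ on the strand of the gene. Capitals mark the hexamer TATAAA, or TTTATA where it lies on the other strand.
Il1a, chr3:136990018-136990167 (−): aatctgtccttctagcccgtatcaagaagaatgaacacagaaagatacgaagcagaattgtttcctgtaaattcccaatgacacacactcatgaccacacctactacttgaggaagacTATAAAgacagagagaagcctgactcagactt
Il1b, chr3:137036582-137036731 (−): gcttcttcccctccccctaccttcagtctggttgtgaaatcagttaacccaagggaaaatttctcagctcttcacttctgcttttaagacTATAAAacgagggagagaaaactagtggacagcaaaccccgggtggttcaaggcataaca
Il1rn, chr3:27520172-27520321 (+): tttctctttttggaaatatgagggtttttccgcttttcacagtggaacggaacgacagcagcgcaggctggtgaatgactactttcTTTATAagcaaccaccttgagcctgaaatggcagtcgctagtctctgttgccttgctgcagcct
Il33, the second annotated start, chr1:237134796-237134945 (+): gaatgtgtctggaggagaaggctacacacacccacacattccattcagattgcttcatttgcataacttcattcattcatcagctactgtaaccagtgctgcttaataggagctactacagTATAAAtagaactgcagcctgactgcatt
A RefSeq promoter was matched to 8 of the 9 genes, with 10 promoters in all. The hexamer began 32 bases before the start of Il1a, 60 bases before that of Il1b and 29 bases before the second start of Il33. On the gene strand, with its first base 40 to 15 bases before the start, it stood in 2 of these 10 promoters and in 502 of 33469 RefSeq promoters of the rat. On either strand within 250 bases it stood in 5 of the 10 promoters and in 12.9% of all. A match of letters is a description and shows no binding. All 4 promoters shown are among the 5 that held the hexamer. The first annotated start of Il33, which is not shown, held none on either strand within 250 bases. UMIs of a 3′ kit do not tell which start of Il33 was used.

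Of 68658 deposited cells, 55455 were kept, with 23535282 to 99689125 UMIs per library and a median per cell of 2745 in sham 1 to 10836 in severe 2. Cells were put into types by a gate on lists of marker genes, in which no gene of the family was included, and 9002 cells (16.2%) passed no gate. Macrophages/microglia were the largest type with 27518 cells, followed by 7118 neutrophils, 3844 oligodendrocytes, 2204 oligodendrocyte precursors and 1854 fibroblasts. No library held 20 astrocytes, with 70 in all 8 libraries, so this spinal cord suspension gives no level for them. Sham 1 stood apart. It held 3708 neutrophils, where sham 2 held 1. The group of this library is known from its label alone, and whether the cord was uninjured was not tested. Levels are given as CPM, the UMIs of a gene or list summed over all cells of a type in a library per 1000000 UMIs of those cells. The 17 neutrophil markers summed to 5666 CPM in its macrophages/microglia, to 142 CPM in sham 2 and to 899 to 2049 CPM in the 6 injured libraries. In the oligodendrocyte precursors of sham 1 the same list summed to 9154 CPM, above the 8849 CPM of the precursors' own 11 markers. Differences that passed with sham 1 are therefore given with and without it. At most 40 cell barcodes were shared between any 2 libraries, and at most 0.452% of those of the smaller one.

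The 9 genes were concentrated in different cells. Means and SDs of CPM are over the libraries with 20 or more cells of the type in question. Il1b, Il1rn and Il1r2 were highest in neutrophils and Il1a in macrophages/microglia. Il33 was highest in oligodendrocyte precursors, Il18 in dendritic cells and Il1r1 in endothelial cells. Il1rap was highest in Schwann cells and oligodendrocyte precursors, and Il1rl1 in fibroblasts. Over all kept cells, 677 UMIs were counted for Il1rl1 and 990 for Il1r1, so the levels of these 2 receptors rest on few molecules. UMIs numbered 408399 for Il1b and 306777 for Il33.

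**Figure D1:**
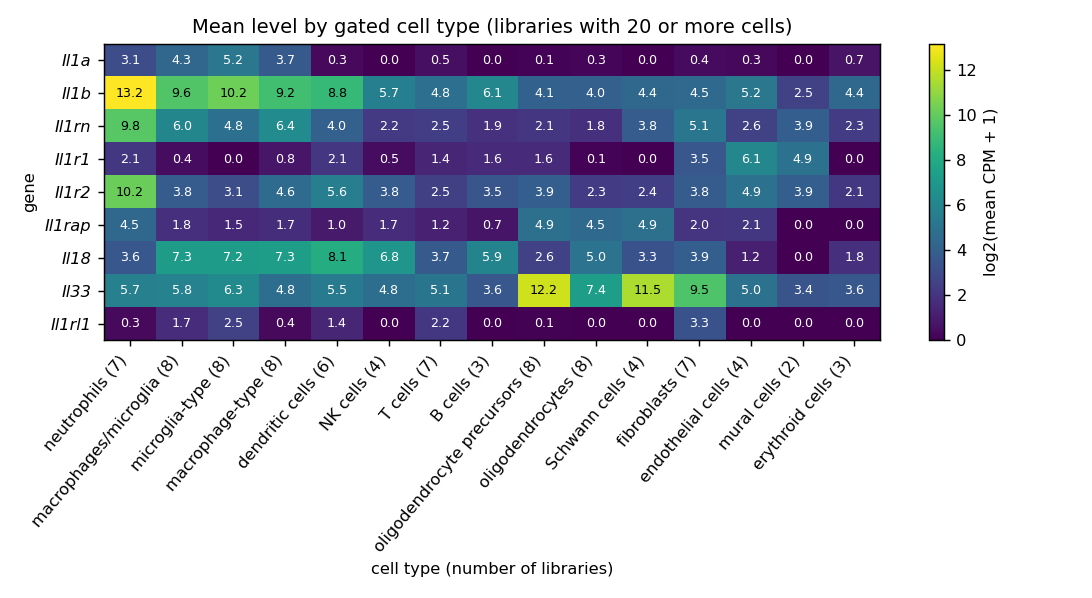
Mean level of the 9 genes (rows) in each cell type (columns, with the number of libraries that had 20 or more such cells), as log2(mean CPM + 1) by colour and in print. Il1b peaks in neutrophils at 9095 CPM and Il33 in oligodendrocyte precursors at 4680 CPM.

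Numbers of cells weigh on where most molecules lay. Macrophages/microglia held 95.2% of all UMIs of Il1a, 89.2% of those of Il18 and 70.5% of those of Il1b. For Il1b a further 16.8% lay in neutrophils and 11.6% in cells that passed no gate. Without severe 2, macrophages/microglia held 48.3% and neutrophils 33.6% of the UMIs of Il1b. Without severe 1 these shares were 78.5% and 10.3%. Neutrophils held 65.1% of the 29807 UMIs of Il1r2 and 30.5% of those of Il1rn. Leaving out sham 1 lowered these shares to 43.4%, of 8586 UMIs, and to 15.7%. Oligodendrocyte precursors made up 3.97% of the cells and held 41.6% of the UMIs of Il33. Another 43.4% of Il33, 133235 UMIs, lay in cells without a type, and of these 60.9% were in cells whose leading marker list was that of the precursors. The leading list was that of Schwann cells for 16.4% of them and that of macrophages/microglia for 10.5%.

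**Figure D2:**
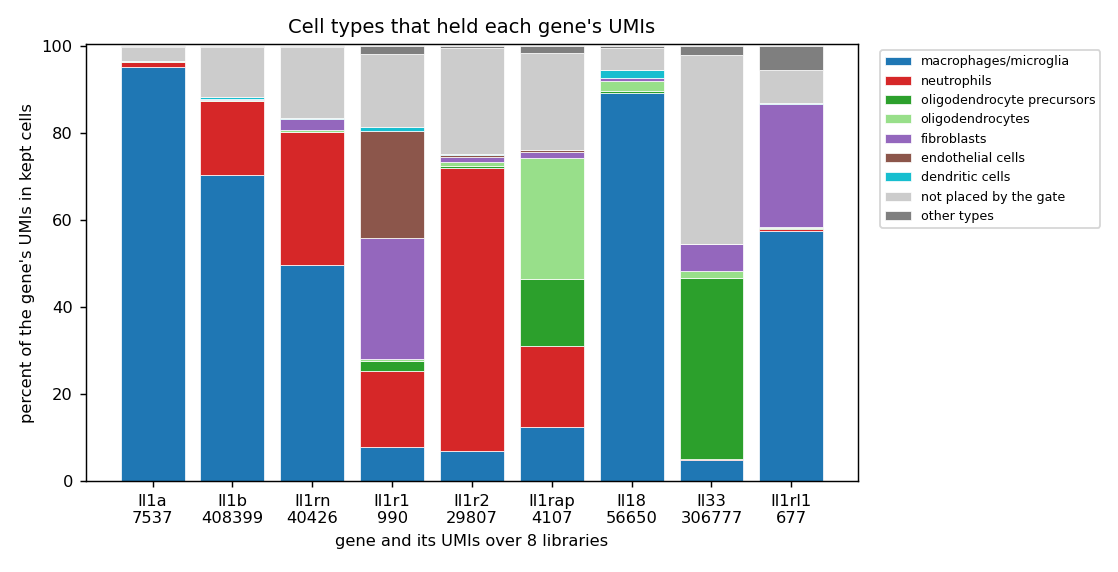
Percent of each gene's UMIs by cell type over all 8 libraries; cells that passed no gate are shown as their own part. Macrophages/microglia hold 95.2% of Il1a and 89.2% of Il18, while oligodendrocyte precursors and cells without a type hold 41.6% and 43.4% of Il33.

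Injury groups were compared by edgeR on UMIs summed per library and type, with 1 fit over all genes of a type and p-values adjusted over all of them. A gene passed the test with an adjusted p under 0.05. The comparisons against sham share the sham libraries, and those of the severe group share the severe libraries. A fit without 1 library of a group leaves 1 there, so its spread comes from the other groups. Its adjusted p measures no spread within that group. In macrophages/microglia all 9 genes were tested. Against sham, 1 of 9 was lower in the mild group, where 3.31% of 13427 genes were lower, and 1 of 9 in the moderate group, where 1.03% were. In the severe group 3 of 9 passed, 2 higher and 1 lower, beside 9.47% of all genes in either direction. Against the mild group, 2 of 9 were higher in the severe group, beside 1.53% of all genes. The median log2 fold change of the 9 genes was 0.20 for severe against sham and 0.21 for severe against mild, where the medians of all genes were −0.08 and −0.04. Without TMM factors, which scale libraries by the bulk of their genes, the medians of all genes moved to −0.58 and −0.43. The genes that passed were Il1rl1 in all 3 comparisons with sham, Il1b and Il1rn in the severe group against sham, and Il1a and Il1b in the severe group against the mild group.

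**Figure D3:**
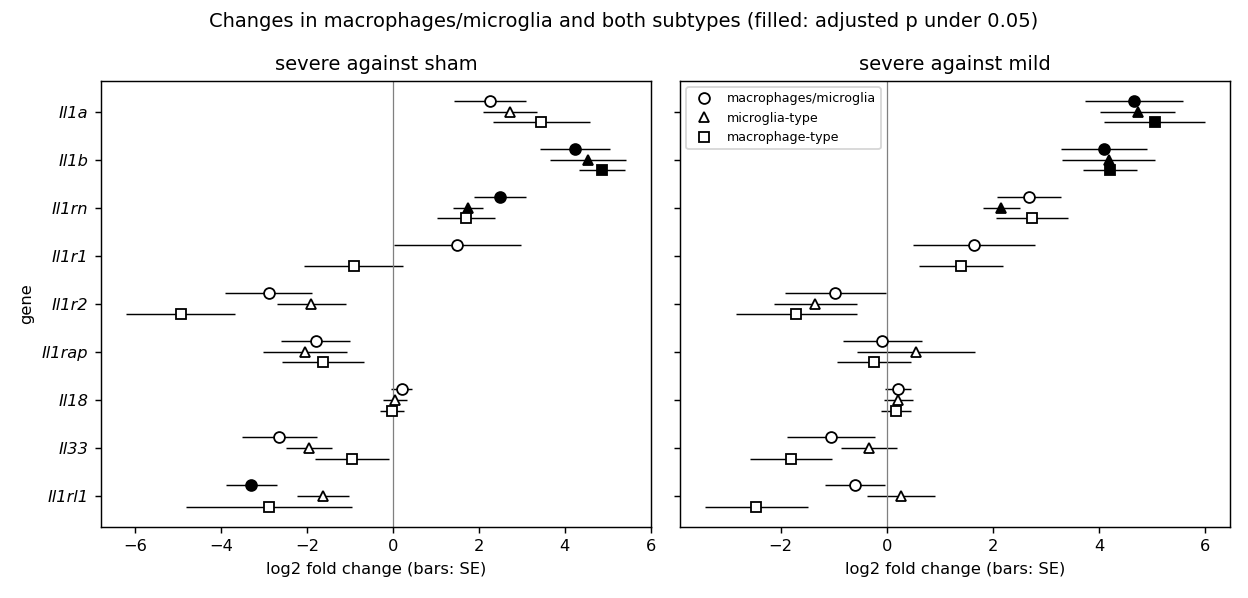
Log2 fold changes of the 9 genes between injury groups in macrophages/microglia (circles), microglia-type cells (triangles) and macrophage-type cells (squares) as fitted by edgeR, for severe against sham on the left and severe against mild on the right, with bars of 1 standard error; filled points have an adjusted p under 0.05. In macrophages/microglia, Il1b lies at 4.24 and Il1rl1 at −3.29 for severe against sham.

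Il1b had the largest log2 fold change of the 3 genes that passed for severe against sham in macrophages/microglia. Its level there was 59.1 and 288 CPM in the sham libraries, 177 and 203 CPM in the mild, 176 and 336 CPM in the moderate, and 1767 and 3166 CPM in the severe libraries. Both severe libraries lay far above the other 6, and the sham, mild and moderate libraries overlapped. The severe group was higher than sham by 4.24 ± 0.81 (log2 fold change ± SE, 2 libraries per group, adjusted p = 0.0204) and higher than the mild group by 4.10 ± 0.81 (adjusted p = 0.0426). Without sham 1 the difference from sham was 3.47, and without sham 2 it was 6.10. It did not pass without severe 1 (4.65, adjusted p = 0.0609) or severe 2 (3.66, adjusted p = 0.0775), or with the 2 groups fitted alone (4.20, adjusted p = 0.0719). The difference from the mild group did not pass when any 1 of the mild, moderate or severe libraries was left out, with adjusted p between 0.059 and 0.315 and log2 fold changes between 3.53 and 4.49. Neutrophil markers in these cells summed to 2049 and 999 CPM in the severe and 2003 and 1095 CPM in the mild libraries. In the cells with at most 1 distinct neutrophil marker, which leaves out sham 1, the severe group stood 3.63 above sham.

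Macrophages/microglia were then split by further markers. Microglia-type cells numbered 3912 of the 27518 and were named by markers of resident microglia, among them P2ry12 and Tmem119. Macrophage-type cells numbered 16943 and held markers such as Fn1 and Gpnmb. The remaining macrophages/microglia were placed in neither kind. Of the 287901 UMIs of Il1b in macrophages/microglia, 60779 lay in microglia-type and 143611 in macrophage-type cells. Whether the cells of either kind were resident or came from the blood was not tested. Il1b stood at 3673 and 3998 CPM in the microglia-type cells of the severe libraries and at 30.6 to 660 CPM in the other 6. In the macrophage-type cells it stood at 1337 and 2456 CPM in the severe libraries and at 85.2 to 271 CPM in the others. The severe libraries were above all others in both kinds of cell. Severe against sham gave 4.54 in microglia-type (adjusted p = 0.0313) and 4.86 in macrophage-type cells (adjusted p = 0.00377), and severe against mild gave 4.18 and 4.21 (adjusted p = 0.0352 and 0.00262). In macrophage-type cells both differences passed under all 18 alternatives. In microglia-type cells the difference from sham did not pass without moderate 1 (adjusted p = 0.0714), moderate 2 (0.0567), severe 1 (0.112) or severe 2 (0.209), or with the 2 groups fitted alone (0.0917). The difference from the mild group did not pass there when any 1 of the mild, moderate or severe libraries was left out, with adjusted p between 0.0637 and 0.286. The size of the difference from sham was 3.66 without sham 1 and 7.44 without sham 2. Of the 8 family genes tested in microglia-type cells, 2 were higher in the severe group than in sham and 3 than in the mild group, beside 1.01% and 1.41% of 10035 genes. In macrophage-type cells 1 of 9 was higher than sham and 2 than the mild group, beside 2.40% and 3.16% of 12521 genes. No family gene passed by edgeR in the mild or moderate group against sham in either kind of cell. In microglia-type cells 0.857% and 0.110% of all genes passed there, with 4 and 2 family genes at an unadjusted p under 0.05 and 1 called by DESeq2 in each. In macrophage-type cells 2.86% and 0.248% passed, with 1 family gene at an unadjusted p under 0.05 and 0 called by DESeq2 in each.

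Neutrophils, short-lived cells drawn from the blood, carried the highest Il1b. The level was 1428 CPM in sham 1, 2034 and 2495 CPM in the mild, 5715 and 9725 CPM in the moderate, and 25621 and 16644 CPM in the severe libraries. The 3 injured groups did not overlap, and each library of a higher drop lay above each of a lower drop. In a fit over the injured groups, Il1b was higher in the severe than in the mild group by 3.66 ± 0.56 (adjusted p = 0.0125). Of the 6 family genes tested, 3 were higher in the severe than in the mild group, beside 2.54% of 4575 genes. None passed by edgeR between the moderate and the mild group, where 0.240% of genes passed, 2 family genes had an unadjusted p under 0.05 and DESeq2 called 1. The difference did not pass without mild 1 (3.63, adjusted p = 0.184) or mild 2 (3.73, adjusted p = 0.0897). Within the same library, neutrophils exceeded macrophages/microglia in Il1b by 3.97 ± 0.92 on the log2(CPM + 1) scale (SD over 7 libraries, each with neutrophils above; exact sign-flip permutation test, p = 0.0156, adjusted p = 0.0312 over 14 comparisons of this kind). Without sham 1 it was 3.87 in the remaining 6 libraries (exact permutation test, adjusted p = 0.0547). Cells with at least 1000 UMIs were thinned to 1000 UMIs, and shallower cells were left out of these shares. Among the thinned cells, 79.0% ± 16.2 of neutrophils (SD, 6 libraries) and 24.4% ± 20.4 of macrophages/microglia (8 libraries) held a UMI of Il1b. Median depth of neutrophils was 659 to 877 UMIs in the mild and moderate libraries, so the neutrophil share there covers only their deeper cells. In erythroid cells, which should lack it, the share was 2.92%. Without thinning the shares were 82.0%, 49.3% and 10.0%, at median depths of 659 to 2625 UMIs in neutrophils, 6071 to 16593 in macrophages/microglia and 4048 to 7479 in erythroid cells. In oligodendrocyte precursors Il1b stood at 1.84 to 35.8 CPM, near the 3.88 to 43.3 CPM of erythroid cells.

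**Figure D4:**
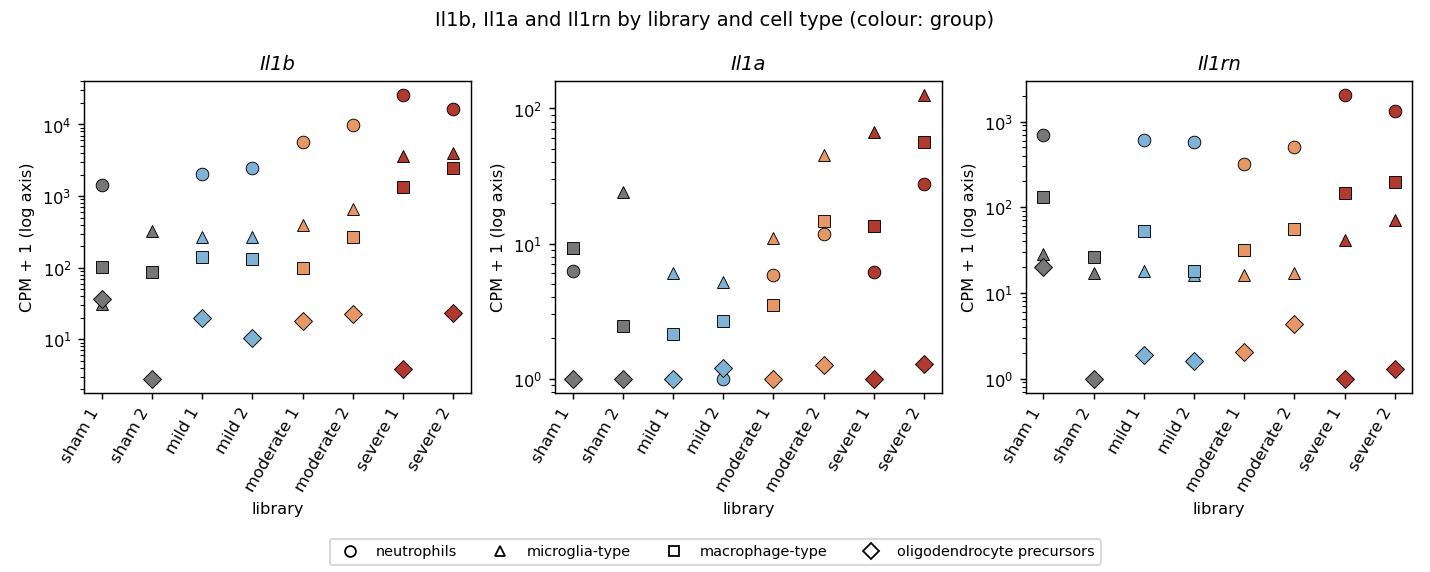
Levels of Il1b, Il1a and Il1rn in each library, as CPM + 1 on a log axis, in neutrophils, microglia-type cells, macrophage-type cells and oligodendrocyte precursors; colours stand for the groups. Both severe libraries are the highest for Il1b in all 3 myeloid types, reaching 25621 CPM in neutrophils.

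Il1a was found almost entirely in macrophages/microglia. It stood there at 7.71 and 19.5 CPM in the sham, 2.29 and 2.87 CPM in the mild, 4.41 and 18.2 CPM in the moderate and 20.4 and 77.3 CPM in the severe libraries. The mild libraries were the lowest and the severe libraries the highest, while the sham and moderate libraries overlapped. The severe group was 4.66 ± 0.93 above the mild group (adjusted p = 0.0436), and the difference from sham did not pass. Without mild 1 the adjusted p was 0.32, without mild 2 it was 0.283, without severe 1 it was 0.069 and without severe 2 it was 0.139, with log2 fold changes between 3.29 and 5.34. The severe group was also above the mild group in microglia-type cells by 4.73 (adjusted p = 0.00613) and in macrophage-type cells by 5.05 (adjusted p = 0.0205), and neither passed without mild 1, mild 2 or severe 2, with adjusted p between 0.0569 and 0.148.

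Within libraries the microglia-type and macrophage-type cells differed in Il1a. In microglia-type cells it stood at 4.20 to 124 CPM and in macrophage-type cells at 1.12 to 55.7 CPM. Macrophage-type minus microglia-type cells of the same library gave −1.56 ± 0.96 on the log2(CPM + 1) scale (SD, below 0 in 8 of 8 libraries, exact sign-flip permutation test, p = 0.00781, adjusted p = 0.0312), and −1.78 ± 0.79 without sham 1 (exact permutation test, adjusted p = 0.0547). For Il1b the same difference was −0.95 ± 1.17, above 0 in 1 of 8 libraries, which was sham 1 (exact permutation p = 0.0625, adjusted p = 0.0972). Without sham 1 it was −1.33 ± 0.51, below 0 in 7 of 7 libraries (exact permutation test, adjusted p = 0.0547). It passed with the stricter gate (−1.25, exact permutation test, adjusted p = 0.0243) and in cells with at most 1 neutrophil marker (−0.93, exact permutation test, adjusted p = 0.0486). In neutrophils Il1a stood at 0 to 26.8 CPM, on at most 58 UMIs per library, and its difference from macrophages/microglia was −1.15 ± 0.79 (exact permutation p = 0.0312, adjusted p = 0.0547).

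Il1rn, the antagonist, was highest in neutrophils at 862.5 ± 602 CPM (SD, 7 libraries) and lower in macrophages/microglia at 63.5 ± 53.8 CPM (8 libraries). In macrophages/microglia it stood at 61.9 and 17.7 CPM in the sham, 43.2 and 17.2 CPM in the mild, 25.6 and 49.2 CPM in the moderate and 139 and 154 CPM in the severe libraries. The severe libraries were again above all others, and the remaining groups overlapped. Severe against sham gave 2.49 ± 0.60 (adjusted p = 0.0393), while severe against mild gave 2.68 (adjusted p = 0.0594). The first of these did not pass without TMM factors (1.90, adjusted p = 0.0695), without sham 2 (1.95, adjusted p = 0.0609), moderate 1 (0.0538), moderate 2 (0.0526), severe 1 (0.115) or severe 2 (0.127), with the looser gate (0.0861), with a mitochondrial limit of 20% (0.0501) or with the 2 groups fitted alone (0.0828). Without sham 1, whose macrophages/microglia held the most neutrophil markers, it was 3.41.

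The cell types differed in Il1rn in the opposite sense to Il1a. Macrophage-type cells exceeded microglia-type cells of the same library by 1.31 ± 0.69 on the log2(CPM + 1) scale, in 8 of 8 libraries (exact permutation p = 0.00781, adjusted p = 0.0312). Neutrophils exceeded macrophages/microglia by 3.72 ± 0.61 in 7 of 7 libraries (exact permutation p = 0.0156, adjusted p = 0.0312). Without sham 1 these were 1.19 ± 0.64 and 3.77 ± 0.66, with the same direction in each remaining library (exact permutation test, adjusted p = 0.0547 for both). In microglia-type cells Il1rn stood at 40.6 and 70.8 CPM in the severe libraries and at 15.3 to 27.4 CPM in the others, so that the severe libraries were the highest here too. Severe against mild gave 2.16 (adjusted p = 0.00944) and severe against sham 1.75 (adjusted p = 0.0351) in these cells. The first did not pass without mild 1 (0.128), mild 2 (0.162) or severe 2 (0.127), and the other not without either mild, either moderate or the severe 2 library, with adjusted p between 0.0568 and 0.341. Severe against sham also did not pass without TMM factors (1.44, adjusted p = 0.0945), with the 2 groups fitted alone (0.15) or with the stricter gate (0.0624). It was 1.98 without sham 1. In the neutrophils of the injured groups Il1rn stood at 603 and 573 CPM in the mild, 316 and 508 CPM in the moderate and 2030 and 1316 CPM in the severe libraries. The severe group was above the mild by 1.93 (adjusted p = 0.0371) and above the moderate group by 2.23 (adjusted p = 0.0342), the 1 family gene of 6 that was higher there, beside 0.481% of genes. Neither passed in every fit that left out a library: adjusted p was 0.244 without mild 1 and 0.217 without mild 2 for the former, and 0.0793 without mild 1 and 0.156 without moderate 1 for the latter.

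The balance of antagonist and agonist was followed as the log2 ratio of Il1rn to Il1b UMIs within the macrophages/microglia of a library, which compares libraries and does not rank the 2 genes by abundance. It was 0.07 in sham 1 and −4.02 in sham 2. The mild libraries gave −2.04 and −3.56, the moderate libraries −2.78 and −2.77, and the severe libraries −3.67 and −4.36. The sham libraries lay farthest apart, and sham 2 lay within the range of the injured libraries. The injured mean of −3.20 and the sham mean of −1.98 differed by −1.22 (exact permutation test, two-sided, p = 0.357, smallest possible p = 0.0357). Without sham 1 the difference turned to 0.825, and in cells with at most 1 neutrophil marker to 0.272. Sham 1 held 4 such cells and drops out there too, so the 2 changes are not separate. In microglia-type cells the UMIs of Il1b per UMI of Il1rn numbered 90.4 and 56.5 in the severe libraries. They numbered 1.12 to 41.4 in the other libraries, so the severe libraries were the highest of the 8. The 41.4, in moderate 2, rests on 8 UMIs of Il1rn. In macrophage-type cells the severe libraries were also the highest, the lower of them at 9.13 and the others at 0.775 to 7.87. In neutrophils the moderate libraries were the highest, at 18.1 and 19.1, and both severe libraries gave 12.6. The mild libraries gave 3.38 and 4.36 there, and sham 1 gave 2.06. The ratios in these 3 kinds of cell were not tested.

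Il1r1, the signalling receptor, had its highest level in endothelial cells, which line the vessels. Of its 990 UMIs, 27.7% lay in fibroblasts, 24.7% in endothelial cells and 17.4% in neutrophils, and the last of these shares was 1.79% without sham 1. In endothelial cells it stood at 45.5 and 85.6 CPM in the sham and at 51.2 and 89.6 CPM in the severe libraries, the only 4 with at least 20 such cells. These groups overlapped. Mural cells followed with 57.4 CPM in sham 1 and no UMI in sham 2, where 3 UMIs would have been 41.3 CPM. In fibroblasts Il1r1 stood at 26.3 CPM in sham 1 and at 4.27 to 16.2 CPM in the 6 injured libraries. Endothelial cells exceeded fibroblasts in 3 of 3 libraries by 2.34 ± 1.38 on the log2(CPM + 1) scale, where the exact permutation test cannot go below p = 0.25, which it gave. Fibroblasts exceeded macrophages/microglia by 2.86 ± 0.73 in 7 of 7 libraries (exact permutation p = 0.0156, adjusted p = 0.0312), and by 2.70 ± 0.65 without sham 1 (exact permutation test, adjusted p = 0.0547). After thinning, 7.85% ± 2.44 of endothelial cells held a UMI of Il1r1, and 29.1% did without thinning. In macrophages/microglia Il1r1 stood at 0 to 0.934 CPM on at most 19 UMIs per library, and no comparison between injury groups passed for it.

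Il1r2, the decoy receptor, was concentrated in neutrophils. Their level was 1413 CPM in sham 1, 1046 and 1487 CPM in the mild, 948 and 1923 CPM in the moderate and 791 and 528 CPM in the severe libraries. The severe libraries were the lowest, but Il1r2 did not pass the test, with −0.49 ± 0.46 for severe against mild (adjusted p = 0.569) and −0.92 ± 0.46 for severe against moderate (adjusted p = 0.373). Neutrophils exceeded macrophages/microglia in Il1r2 by 6.97 ± 1.17 on the log2(CPM + 1) scale in 7 of 7 libraries (exact permutation p = 0.0156, adjusted p = 0.0312). Without sham 1 it was 7.40 ± 0.25 (exact permutation test, adjusted p = 0.0547). In macrophages/microglia Il1r2 stood at 67.3 CPM in sham 1 and at 2.62 to 8.69 CPM in the other 7, and in oligodendrocyte precursors at 93.5 CPM in sham 1 and at 0 to 6.0 CPM in the others. Sham 1 was the highest in both, and it was also the library with the most neutrophil markers in both. What part those cells had in these levels was not tested. Dendritic cells were next to neutrophils in order, at 49.0 ± 51.9 CPM (6 libraries), and their spread overlapped that of endothelial cells at 29.9 ± 20.6 CPM (4 libraries).

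Il1rap, the accessory chain shared by the receptors for interleukin-1 and interleukin-33, was spread over glia and neutrophils. Its mean was 28.4 ± 21.8 CPM in Schwann cells (4 libraries), 28.2 ± 27.1 CPM in oligodendrocyte precursors (8), 21.7 ± 12.1 CPM in oligodendrocytes (8) and 21.0 ± 20.9 CPM in neutrophils (7), and these did not differ beyond their spread. All other types lay at or below 3.31 CPM on average. Precursors and oligodendrocytes of the same library differed by 0.10 ± 0.52 on the log2(CPM + 1) scale (precursors higher in 5 of 8, exact permutation p = 0.594). In oligodendrocyte precursors Il1rap stood at 90.8 and 16.5 CPM in the sham, 15.6 and 22.9 CPM in the mild, 27.5 and 36.8 CPM in the moderate and 7.66 and 8.03 CPM in the severe libraries. The severe libraries were the lowest and sham 1 was far above all others. Severe against sham gave −2.25 ± 0.58 (adjusted p = 0.0299), the 1 family gene of 6 tested that was lower, beside 4.15% of 10997 genes. Without sham 1 it was −0.73 (adjusted p = 0.523), and it did not pass without severe 1 (0.0797), without severe 2 (0.208) or with the 2 groups fitted alone (0.0754) either. The precursors of sham 1 were 51 cells, and their neutrophil markers are given above. In neutrophils Il1rap stood at 63.0 CPM in sham 1, 3.40 and 0 CPM in the mild, 24.3 and 13.4 CPM in the moderate and 25.8 and 17.3 CPM in the severe libraries, on 0 to 35 UMIs in each injured library. The severe group was above the mild group by 3.16 (adjusted p = 0.0442). It did not pass without mild 2 (0.13), by DESeq2 (0.128) or without TMM factors (0.057). Both mild libraries had the lowest values of the 7. The 0 of mild 2 came from 124 cells with a median of 789.5 UMIs, too few to place it below the others.

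In macrophages/microglia, Il18 had the smallest SD relative to its mean of the 9 genes. It stood there at 175 and 165 CPM in the sham, 150 and 161 CPM in the mild, 177 and 130 CPM in the moderate and 134 and 142 CPM in the severe libraries. Both mild and both severe libraries lay below both sham libraries, while the moderate libraries spanned the whole range. Severe against sham gave 0.20 ± 0.25 after TMM (adjusted p = 0.618) and severe against mild 0.21 ± 0.25 (adjusted p = 0.669). In CPM without TMM factors the severe libraries were below both sham libraries, and no direction is given. Macrophage-type and microglia-type cells of the same library differed by 0.09 ± 0.20 (macrophage-type higher in 4 of 8, exact permutation p = 0.227). Dendritic cells, which present antigen to T cells, stood highest at 277.2 ± 65.4 CPM (6 injured libraries), with macrophages/microglia at 154 ± 18.2 CPM and NK cells at 114 ± 43.8 CPM (4 libraries). After thinning, 13.5% ± 1.74 of macrophages/microglia and 21.8% ± 7.69 of dendritic cells held a UMI of Il18, beside 0.113% of erythroid cells. Without thinning these were 64.4%, 60.7% and 1.36%.

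Oligodendrocytes stood at 15.4 to 61.2 CPM of Il18 and oligodendrocyte precursors at 0 to 9.06 CPM. Precursors were below the macrophages/microglia of their library in 8 of 8, with a difference of −4.88 ± 1.09 on the log2(CPM + 1) scale (exact permutation p = 0.00781, adjusted p = 0.0312), and −4.51 ± 0.35 without sham 1 (exact permutation test, adjusted p = 0.0547). No comparison between injury groups passed for Il18 in any of the types fitted.

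Il33 was the ligand of the oligodendrocyte precursors, glia that divide and form new oligodendrocytes. Its level there was 3449 and 4903 CPM in the sham, 6680 and 5052 CPM in the mild, 3467 and 5310 CPM in the moderate and 3850 and 4731 CPM in the severe libraries. All 4 groups overlapped except that both mild libraries lay above both sham and both severe libraries, and the mean was 4680 ± 1087 CPM (SD, 8 libraries). The difference from sham was 0.51 ± 0.35 in the mild (adjusted p = 0.403), 0.05 ± 0.35 in the moderate (adjusted p = 0.954) and 0.39 ± 0.35 in the severe group (adjusted p = 0.494). Of the 6 family genes tested in the precursors, none passed in the mild and moderate groups by edgeR, where 3.16% and 5.33% of all genes passed, and 3 and 1 of them had an unadjusted p under 0.05. Between the severe and the mild group none passed or had such a p, beside 4.73% of all genes. DESeq2 called 0 in these 3 comparisons. After thinning, 75.3% ± 12.7 of the precursors held a UMI of Il33, and 95.7% ± 4.82 did without thinning. In erythroid cells the shares were 1.19% and 3.54%. Sham 1, with 51 precursors, had the lowest share at 47.1%.

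Other cells held Il33 at lower or less even levels, which are given as a description. Schwann cells, the myelinating glia of nerve roots, had 8.78 CPM in sham 1, on 1 UMI, but 3041 and 5077 CPM in the moderate libraries and 3656 CPM in severe 2. Moderate 2 and severe 2 stood within the 3449 to 6680 CPM of the precursors and moderate 1 below it, with 20 to 42 cells each. With the stricter gate no library held 20 Schwann cells. What part precursor-like cells had in these levels was not tested. Fibroblasts had 2241 CPM in sham 1, 651 and 511 CPM in the mild, 276 and 365 CPM in the moderate and 303 and 739 CPM in the severe libraries. The injured groups of fibroblasts overlapped, and none of the 8 family genes tested there passed by edgeR in any of 3 comparisons among them, with 2 to 3 at an unadjusted p under 0.05 and 0%, 1.71% and 8.84% of 10794 genes passing. With library size scaling alone 1 passed. In macrophages/microglia Il33 stood at 60.7 and 194 CPM in the sham libraries and at 4.29 to 54.0 CPM in the injured ones, so the sham libraries were the highest. The 11 precursor markers summed there to 19.9 and 16.5 CPM in the sham and 2.29 to 28.9 CPM in the injured libraries. Severe against sham gave −2.64 ± 0.87 (adjusted p = 0.0875). In microglia-type cells the mean of Il33 was 167 CPM in the sham, 59.5 in the mild, 42.8 in the moderate and 35.2 in the severe group. In macrophage-type cells it was 20.3, 35.8, 40.4 and 7.34 CPM, so the mild and moderate means lay above sham there. What part the make-up of the macrophages/microglia had in the pooled levels was not tested.

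In oligodendrocytes, the myelin-forming cells, Il33 stood at 53.4 CPM in sham 1, at 0 in sham 2, where 33 cells were kept and 3 UMIs would have been 7.98 CPM, at 102 and 87.9 CPM in the mild, 383 and 596 CPM in the moderate and 5.78 and 79.4 CPM in the severe libraries. The moderate libraries were above all others. Moderate against sham gave 3.54 ± 0.86 (adjusted p = 0.042), the 1 family gene of 4 tested that was higher, beside 3.35% of 9695 genes. None of the 4 passed by edgeR for mild against sham, severe against sham or severe against mild, where 8.45%, 1.24% and 3.41% of genes passed, with 2, 1 and 1 of them at an unadjusted p under 0.05 and 0 called by DESeq2. Kept with the doublets that Scrublet had removed, the difference was 1.38 (adjusted p = 0.289), by DESeq2 the adjusted p was 0.214, and with a mitochondrial limit of 20% it was 0.113. It did not pass without sham 1 (0.0607, against a group at 0), mild 1 (0.071), mild 2 (0.0685) or moderate 2 (0.177). Precursor markers in these oligodendrocytes summed to 709 and 730 CPM in the moderate and 729 to 1263 CPM in the other libraries. In dendritic cells of the injured groups Il33 gave −4.94 for severe against moderate (adjusted p = 0.0154). That rests on 48 UMIs in moderate 1, beside 3 UMIs in moderate 2 and 0 and 6 in the severe libraries, and without moderate 1 it was −1.81 (adjusted p = 0.635). It did not pass by DESeq2 (0.235) or with the looser gate (−2.92, adjusted p = 0.18) either. It was the 1 family gene of 4 tested there that was lower, beside 1.37% of 4448 genes. None passed by edgeR for moderate against mild or severe against mild, where 0.337% and 2.88% of genes passed, with 1 and 2 family genes at an unadjusted p under 0.05 and 0 called by DESeq2.

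**Figure D5:**
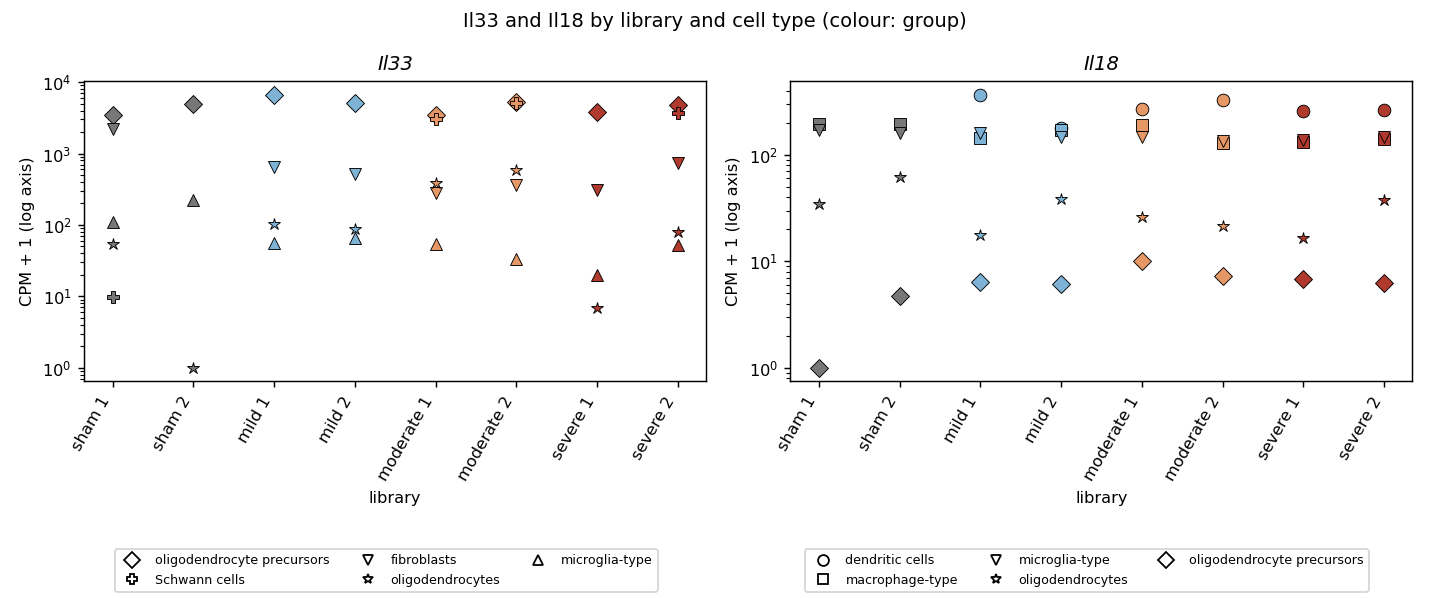
Levels of Il33 and Il18 in each library, as CPM + 1 on a log axis, by cell type; colours stand for the groups. Il33 of oligodendrocyte precursors stays between 3449 and 6680 CPM in all 8 libraries, and Il18 of macrophage-type and microglia-type cells between 128 and 194 CPM.

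Il1rl1, the receptor for interleukin-33, was rare. In macrophages/microglia it stood at 7.71 and 5.25 CPM in the sham, 0.724 and 1.08 CPM in the mild, 1.04 and 0.648 CPM in the moderate and 0.181 and 0.620 CPM in the severe libraries. Every injured library lay below both sham libraries. Against sham, Il1rl1 fell by 2.69 on the log2 scale in the mild (adjusted p = 0.0322), by 2.82 in the moderate (adjusted p = 0.0403) and by 3.29 in the severe group (adjusted p = 0.0175). Without sham 1, which leaves 1 sham library, it fell by 2.56, 2.71 and 3.12. The severe difference did not pass without severe 1 (−2.77, adjusted p = 0.0785), which had 3 UMIs. The mild and moderate differences did not pass when any 1 of the mild or moderate libraries was left out, with adjusted p between 0.0569 and 0.283. With the 2 groups fitted alone, none of the 3 differences passed (adjusted p = 0.0976 for mild, 0.145 for moderate and 0.0632 for severe). The microglia-type markers moved with it: they summed to 973 and 2674 CPM in the sham and to 231 to 698 CPM in the injured macrophages/microglia. Within microglia-type cells Il1rl1 stood at 11.5 and 5.72 CPM in the sham and at 1.63 to 9.98 CPM in the injured libraries, which overlapped, and no comparison passed (−1.63 ± 0.61 for severe against sham, adjusted p = 0.228). In macrophage-type cells it stood at 0 to 0.728 CPM. How far the make-up of the macrophages/microglia accounts for the difference was not tested.

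Fibroblasts had the highest mean of Il1rl1 at 8.89 ± 11.4 CPM (7 libraries), from 0 in mild 1 to 31.6 CPM in moderate 2. With macrophages/microglia taken as 1 type, T cells followed at 3.46 ± 2.89 CPM on 10 UMIs in all. The microglia-type part alone stood at 4.79 ± 3.90 CPM (8 libraries). T cells and macrophages/microglia of a library differed by 0.73 ± 1.69 on the log2(CPM + 1) scale (T cells higher in 5 of 7, exact permutation p = 0.297). The spread of these types overlaps. In oligodendrocyte precursors, the cells with the most Il33, 1 UMI of Il1rl1 was counted in 2204 cells. In endothelial cells none was counted, where 3 UMIs would have been 2.17 to 11.2 CPM per library. In T cells 2 of the 9 genes could be tested and none passed by edgeR, with 0 or 1 of them at an unadjusted p under 0.05 and 0.408%, 2.88% and 1.99% of 4412 genes passing between moderate and mild, severe and mild, and severe and moderate. DESeq2 called 1, for severe against mild.

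Levels were also set against the order sham, mild, moderate and severe, with 18 exact permutation tests over 8 libraries in macrophages/microglia and oligodendrocyte precursors. None had an adjusted p under 0.05. Il1rl1 in macrophages/microglia came nearest, with rho = −0.927 and r = −0.851 (exact permutation p = 0.00317 for each, adjusted p = 0.0571). Il33 in the same cells gave rho = −0.878 and r = −0.786 (exact p = 0.0103 for each, adjusted p = 0.0929 and 0.0857). Il1b in the same cells gave rho = 0.683 (exact p = 0.0825, adjusted p = 0.297) and r = 0.819 (exact p = 0.0143, adjusted p = 0.0857), and without the 2 severe libraries r = 0.455, so the relation of Il1b rests on those libraries. Without them r was −0.860 for Il1rl1 and −0.656 for Il33. For Il33 in oligodendrocyte precursors rho was −0.0488 and r −0.10 (exact p = 0.946 and 0.811). Tests of this kind were added in the other cell types, over all libraries and again over the injured ones, and were adjusted as 125. Dendritic cells had no sham library with 20 cells, so their tests entered both times with the same values. Among the added tests, Il1b in neutrophils had rho = 0.973 and r = 0.969 over 7 libraries (exact permutation p = 0.00317 and 0.00159, adjusted p = 0.132 and 0.165). Il1r2 in fibroblasts had rho = −0.973 and r = −0.930 over 7 libraries (exact permutation p = 0.00317 for each, adjusted p = 0.132 and 0.165), and Il33 in microglia-type cells rho = −0.927 and r = −0.834 over 8 (exact permutation p = 0.00317 and 0.00556, adjusted p = 0.132 and 0.174).

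Other genes of the pathway, in lists chosen by their roles, were counted in macrophages/microglia. Of 6 further family ligands, receptors and binding proteins tested, Il18bp, which binds and blocks interleukin-18, was higher and Il18r1, a chain of its receptor, lower than sham in all 3 injured groups. These 2 of 6 stand beside 7.73%, 3.47% and 9.47% of all genes in either direction for mild, moderate and severe. Il18bp stood at 18.7 and 8.10 CPM in the sham and 51.3 and 76.5 CPM in the mild libraries (2.47 ± 0.38, adjusted p = 0.0164). Il18r1 stood at 2.10 and 1.52 CPM in the sham and at 0.121 and 0.109 CPM in the severe libraries (−3.43 ± 0.61, adjusted p = 0.0165). The median of the 6 was 1.56 for severe against sham, beside −0.08 over all genes. Within macrophage-type cells Il18bp gave 1.96 ± 0.47 for mild against sham (adjusted p = 0.058) and within microglia-type cells 0.31 ± 0.49 (adjusted p = 0.748), and Il18r1 could be tested in neither. The microglia-type markers, given above for Il1rl1, were lower in every injured library than in either sham library, and their part in these values was not tested.

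Of 10 inflammasome genes, Nlrp3, its sensor, was higher and P2rx7, an ATP-gated channel upstream of it, lower in the severe group than in sham. Nlrp3 stood at 69.4 and 74.5 CPM in the sham and 177 and 413 CPM in the severe libraries (2.55 ± 0.49, adjusted p = 0.0204). P2rx7 stood at 17.5 and 10.8 CPM in the sham and at 0.966 and 2.11 CPM in the severe libraries (−2.58 ± 0.53, adjusted p = 0.0251). These 2 of 10 stand beside the 9.47% of all genes, and the median of the 10 was −0.05. Nlrp3 also passed in microglia-type (2.94, adjusted p = 0.00701) and macrophage-type cells (2.58, adjusted p = 0.0221, and 0.0662 without sham 1). P2rx7 gave −1.22 (adjusted p = 0.285) and −2.49 (adjusted p = 0.125) there and did not pass, and the part of the lower microglia-type markers in the pooled cells was not tested. In the pooled cells P2rx7 was also lower in the mild group than in sham (−2.41 ± 0.52, adjusted p = 0.0347). It was the 1 of 10 that passed there, beside 7.73% of all genes in either direction. Moderate against sham gave −1.58 (adjusted p = 0.115). Of 16 genes of signalling next to the receptor, Irak2, a kinase of the pathway, passed for severe against sham (2.25 ± 0.46, adjusted p = 0.0247). Tollip, an inhibitor, passed for moderate against sham (1.27 ± 0.27, adjusted p = 0.0471). Each was 1 of 16, beside 9.47% of all genes for severe and 3.47% for moderate in either direction. The median of the 16 was 0.19 for severe against sham. Irak2 gave 1.87 in microglia-type cells (adjusted p = 0.121) and 2.16 in macrophage-type cells (adjusted p = 0.0338). Without sham 1 these were 1.57 and 2.49, and neither passed. Tollip passed in neither kind of cell (adjusted p = 0.267 and 0.176). Most genes of both lists thus did not pass.

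Of 10 target and feedback genes, 3 were higher in the severe group than in sham, with a median log2 fold change of 2.0, where 9.47% of all genes passed in either direction. Against the mild group 2 of the 10, Cxcl1 and Cxcl2, were higher, beside 2.47% in either direction. The neutrophil-attracting chemokine Cxcl1 stood at 229 and 369 CPM in the sham and 4676 and 7077 CPM in the severe libraries (4.77 ± 0.51, adjusted p = 0.00258). Cxcl2, of the same kind, stood at 828 and 671 CPM in the sham and 4179 and 5229 CPM in the severe libraries (3.17 ± 0.29, adjusted p = 0.00184). Zc3h12a, an RNase that degrades inflammatory transcripts, was higher by 2.59 ± 0.47 (adjusted p = 0.0170). As for Il1b, both severe libraries lay above all others for these 3 genes. Il6 was lower than sham in the moderate group (−3.26 ± 0.68, adjusted p = 0.0434) and in the mild group (−2.80 ± 0.66, adjusted p = 0.0435). It was the 1 of 10 that was lower in each, beside 3.47% and 7.73% of all genes in either direction. Its level was 4.9 and 11.4 CPM in the sham and 0.807 to 1.41 CPM in the mild and moderate libraries. Il6 passed in neither microglia-type nor macrophage-type cells in these comparisons with both sham libraries. It gave −3.85 for mild and −2.90 for moderate against sham in microglia-type cells, and −2.46 and −1.82 in macrophage-type cells. Without sham 1, which leaves 1 sham library, these were −4.25 and −3.30, and −2.36 and −1.73. In macrophages/microglia severe against sham gave −0.52 for Il6 (adjusted p = 0.605), with 2.05 and 6.31 CPM in the severe libraries. For severe against sham, Cxcl1 gave 4.67 in microglia-type cells (adjusted p = 0.0644) and 3.52 in macrophage-type cells (adjusted p = 0.00437). Without sham 1 its differences there were 3.75 and 3.33. Each pathway gene named for a comparison with sham in macrophages/microglia kept its direction without sham 1. Tollip, at 1.13 there, no longer passed. In neutrophils, 3 of the 8 targets tested were higher in the severe than in the mild group, beside 2.54% of all genes, with a median of 2.17 beside −0.01. They were Cxcl1, Cxcl2 and Tnfaip3, the last named after its values were seen.

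The genes whose pattern over 13 cell types was most like each family gene were found among 6192 genes by Pearson's r of mean log2(CPM + 1), as a description in which all points share libraries and gates. For Il1b these were Nlrp3 (r = 0.970), RGD1561143 (0.964) and Ptafr (0.962), each highest in neutrophils. For Il1a they were Gpr84 (0.953), Slc11a1 (0.935) and Fcnb (0.923), highest in macrophages/microglia. For Il1rn they were Thbs1 (0.961), C3 (0.938) and Serinc2 (0.930). Il33 was followed most closely by Gap43 (0.968), a growth cone protein, Dok5 (0.967) and Mmp16 (0.960), with Gap43 and Mmp16 highest in oligodendrocyte precursors and Dok5 in Schwann cells.

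The likeness was weaker for the receptors and for Il18, apart from Il1r1 and Il1r2. For Il1r1 the nearest were Cgnl1 (0.960), Hspa12b (0.953) and Fzd6 (0.949), all highest in endothelial cells. For Il1r2 they were AABR07041096.1 (0.976), Gprc5d (0.938) and Sirpd (0.931). For Il18 they were Irf5 (0.920), Ly49si1 (0.903) and Irf8 (0.869), highest in dendritic cells, and for Il1rap Tubb3 (0.898), Asrgl1 (0.887) and Fam19a5 (0.882). Il1rl1 had the lowest values, with Asgr2 at 0.865, followed by Dpt and Slc4a4, which were themselves markers in the gate.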

How the data were processed

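Single-cell RNA was measured in 8 rat spinal cord libraries, 2 per group, grouped by their labels. The deposited values are raw UMI counts per gene and cell that the authors made with Cell Ranger (5.0.1 in the file headers) on Rnor_6.0. Sequencing was on the 10x 3′ V3 kit after enzymatic digestion, so levels hold only for cells that survive it. The mild group's drop height was 12.5 mm. The authors normalized with Seurat for their own analysis, which was not used here.

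Cells with over 10% mitochondrial UMIs were removed, then the 7.7% with the highest Scrublet score per library (scanpy 1.11.5), then cells beyond 2 SD in UMIs or genes. A cell took a type when it held at least 3 distinct markers of the type and their share of the list was at least 1.5 times the runner-up. The stricter gate needed 4 markers and 2 times, the looser 2 and 1.25. In all, 3334 cells lay just inside this ratio and 4045 just outside. The scoring rule was set after seeing the data. The members and lists were chosen with earlier results of these data known. No family gene was a marker.

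UMIs summed per library and type (at least 20 cells) were tested with edgeR 4.0.16 in R 4.3.3: filterByExpr, TMM and the quasi-likelihood test, with Benjamini-Hochberg adjustment over all genes of a fit at 0.05. SE is the absolute log2 fold change divided by the square root of F. Fits for microglia-type and macrophage-type cells, and for the types fitted over injured groups alone, were added after seeing the data, as were cells with at most 1 neutrophil marker, and shares of UMIs and pathway genes with a library left out. Alternatives were DESeq2 1.42.0, no TMM, no filter, the 2 groups alone, a replicate block, each library left out, other gates and cell filters, and other pseudocounts, cell minimums and thinning depths. Exact tests (scipy 1.17.1, Python 3.11.15) used log2(CPM + 1), two-sided, with adjustment over the tests of 1 kind. The edgeR step was checked on simulated counts for severe against sham in macrophages/microglia. Genes named are the 9 members and, per pathway list, at most 4 genes with an adjusted p under 0.05 in macrophages/microglia. Tnfaip3, which passed in neutrophils, was added to these after its values were seen. Intervals and floors cover counting error only.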

Additional observations from a re-analysis of the deposited data

Results flagged for a closer look

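Il18 had injured minus sham differences of opposite sign in different cells before TMM scaling, although no comparison of injury groups passed for it. In oligodendrocyte precursors every injured library lay above both sham libraries (a mean difference of 1.70 on the log2(CPM + 1) scale, from 0 and 3.67 CPM to 5.12 to 9.06 CPM). In microglia-type cells the mean difference was −0.19 and in macrophage-type cells −0.37, while edgeR with TMM factors gave 0.05 and −0.03 there for severe against sham. The differences before scaling were apart by 1.89 between precursors and microglia-type cells and by 2.07 between precursors and macrophage-type cells, and this gap was not tested. Il18 had 154 UMIs in the precursors of all 8 libraries, at 0 to 9.06 CPM. The precursors of sham 1 numbered 51 and those of sham 2 numbered 61, so both sham values rest on very few molecules. A count of 0 in so few cells does not place that library below the injured ones.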

How the results depend on the processing

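Counts of family genes that passed between injury groups, summed over 4 comparisons per cell type, moved with the fit. In macrophages/microglia 7 became 13 with DESeq2, 19 without the filter on low counts, 3 with the 2 groups alone and 2 to 15 with a library left out. In oligodendrocyte precursors 1 became 7 without the filter, 0 with the 2 groups alone, 2 with the looser gate and 0 to 8 with a library left out. In oligodendrocytes 1 became 0 with DESeq2, 13 without the filter, 5 with the 2 groups alone, 0 with a mitochondrial limit of 20%, 3 with the stricter and 2 with the looser gate, and 0 to 9 with a library left out. Library numbers were shared between groups, but same-numbered libraries did not deviate together (r between −0.218 and 0.251 over 6 pairs in macrophages/microglia), and the replicate block gave 7 in macrophages/microglia, 1 in precursors and 0 in oligodendrocytes. The block kept 5 of the 7 calls in macrophages/microglia. It lost Il1rl1 for mild (adjusted p = 0.0547) and moderate against sham (0.0703), and it gained Il1a and Il33 for severe against sham. Under the block, Il1rn for severe against sham in microglia-type cells (0.0713) and, in neutrophils, Il1rn for severe against mild (0.0636) and moderate (0.073) and Il1rap for severe against mild (0.0532) did not pass.

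Of the tests across severity, 0 passed by Spearman's rho, and 0 to 2 with a library left out. By Pearson's r 0 passed, 2 with the stricter gate and 0 to 3 with a library left out. Of the 14 comparisons between cell types 7 passed, 0 with at least 100 cells per type and 0 to 7 with a library left out, since fewer libraries raise the smallest possible p. The difference of the Il1rn to Il1b ratio, −1.22, turned to 0.272 with at most 1 neutrophil marker, where sham 1 also drops out. It ranged from −3.26 to 0.825 with a library left out. Shares of cells followed the depth: 24.4% of macrophages/microglia with Il1b became 49.3% without thinning, 75.3% of precursors with Il33 became 61.9% at 500 UMIs and 95.7% without thinning, and 13.5% of macrophages/microglia with Il18 became 7.27% and 64.4%. Unless stated otherwise above, the cause of a change was not tested. The mean levels in the leading cell type of each gene moved by less than 1 SD under every cell filter and gate that gave a level. With the stricter gate no library held 20 Schwann cells, the leading type of Il1rap, so its level there was not compared. With 2 libraries per group, a gene of few UMIs such as Il1r1 or Il1rl1 cannot be shown to be unchanged.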
